A study of Mus musculus with 4 samples.

Results

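The Frizzled family of Wnt receptors was examined in rib chondrocytes that had lost Eed, a core subunit of Polycomb repressive complex 2 (PRC2), the complex that places the silencing mark H3K27me3 on chromatin. The family was taken as the genes Fzd1 to Fzd10, found by symbol in the deposited array table, and its 10 members were among 22305 named genes. Each member had a single probe set. The Eed cKO group held 2 arrays of primary rib chondrocytes in which a Cre recombinase under a mouse Col2a1 promoter (Col2-Cre) had deleted floxed Eed, so cells without that promoter activity keep the gene. The Wt group held 2 arrays of wild-type rib chondrocytes, and no source used here says whether those pups carried Cre. All pups were newborn (0.5 days) on a mixed C57B6/129Sv background, and all cells had spent a night in DMEM with fetal calf serum before total RNA was taken.

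Frizzled proteins span the membrane many times and bind Wnt ligands through a cysteine-rich domain outside the cell. Together with the co-receptors Lrp5 or Lrp6 they stabilise beta-catenin, which acts with Lef/Tcf transcription factors in the canonical branch of the pathway, and with other partners they signal to the cytoskeleton and set the polarity of cells in a tissue. In growth plate cartilage, canonical Wnt signalling is known to promote the maturation of chondrocytes to the hypertrophic stage. By protein sequence the family is usually divided into Fzd3 and Fzd6, the trio Fzd4, Fzd9 and Fzd10, the trio Fzd1, Fzd2 and Fzd7, and the pair Fzd5 and Fzd8.

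The arrays gave 1 intensity per probe set, on a linear scale already brought to a common level by the authors, with medians from 830.4 to 837.4. Eed, the deleted gene, had intensities of 1057 and 990.3 in Eed cKO arrays, against 3597 and 3530 in Wt arrays, as the labels say. The chondrocyte markers were bright in every array, Col2a1, the main cartilage collagen, lying at 36621 and 37497 in Eed cKO arrays and at 37529 and 37633 in Wt arrays. Xist, which coats the inactive X chromosome, crossed the groups, with 4845 and 17196 in Eed cKO 1 and 2, against 17820 and 3634 in Wt 1 and 2. Ddx3y, a gene of the Y chromosome, ran the other way, with 4324 and 622.3 in Eed cKO 1 and 2, against 191.6 and 4664 in Wt 1 and 2. Differences are Eed cKO minus Wt of log2(intensity + 32), tested with limma over the 14944 genes above an intensity filter, and a gene is said to have risen or fallen where the Benjamini-Hochberg adjusted p was under 0.05. The samples are called biological duplicates, with no word on the number of pups behind an array, and p-values measure the spread between these arrays only.

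Of the 10 Frizzled genes, Fzd6, Fzd3, Fzd4 and Fzd9 rose in Eed cKO chondrocytes, none fell and 6 did not pass the test. Over all genes tested, 9.63% rose and 5.98% fell. The log2 differences of the members ran from -0.02 for Fzd7 to 0.84 for Fzd6, with a median of 0.17, beside 0.00 over all genes tested. At an unadjusted p under 0.05 limma gave 5 members higher, Fzd1 being added, and 0 lower. Of all 14944 genes tested, 4554 had an unadjusted limma p under 0.05, in either direction. The methods' t-test, which takes each gene's spread from that gene alone, left 0 members past the threshold after Benjamini-Hochberg, and 4 at an unadjusted p under 0.05. The arrays held RNA of whole cultures, in which fewer cells of a type and less RNA per cell cannot be told apart.

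**Figure D1:**
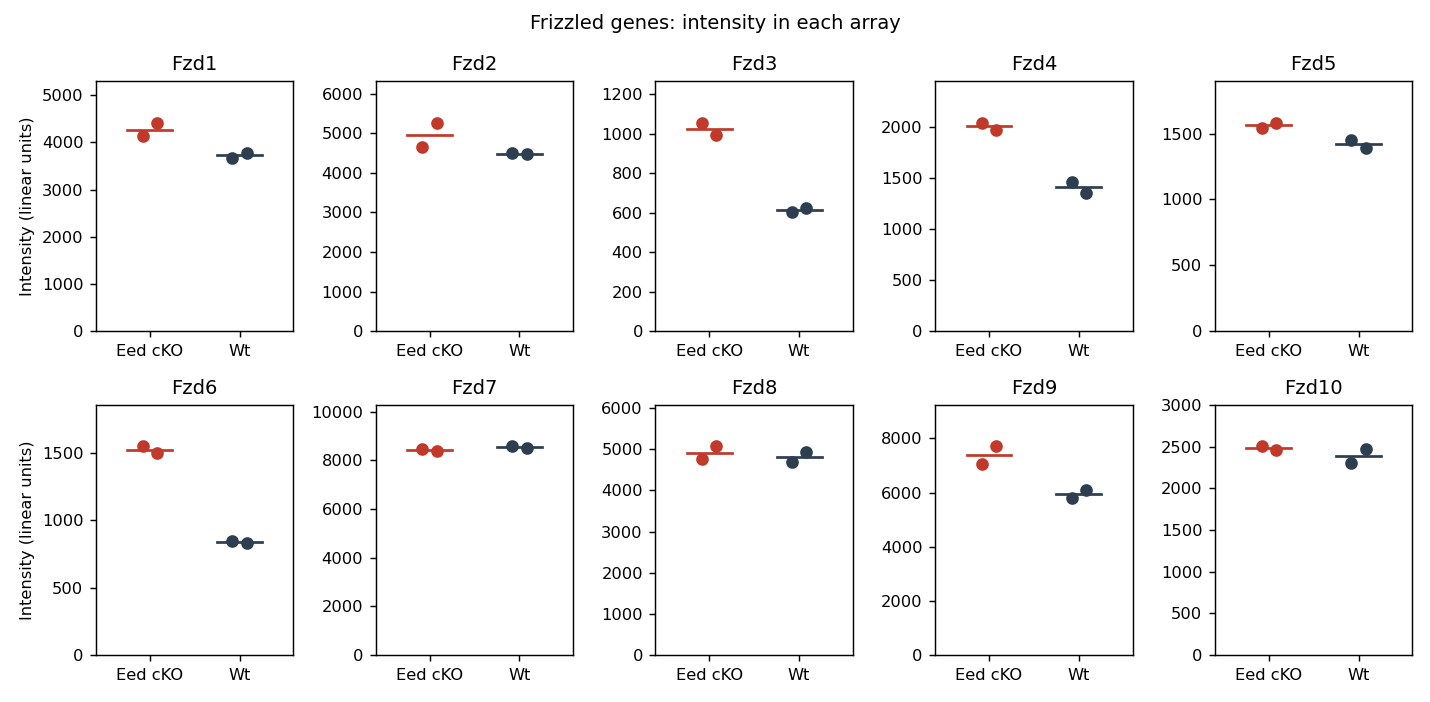
Intensity (linear units, each axis from 0 and with its own scale) of the 10 Frizzled genes in 2 Eed cKO arrays (left, red) and 2 Wt arrays (right, dark), with lines at the group means. The groups stand clearly apart for Fzd3, Fzd4, Fzd6 and Fzd9, and overlap for Fzd8 and Fzd10; the axes of different genes are not comparable, since each probe set binds with its own strength.

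The pair Fzd3 and Fzd6, receptors best known from mouse for planar polarity, the alignment of cells and hairs within a tissue, showed the largest differences of the family. Fzd6 had intensities of 1549 and 1500 in Eed cKO arrays, against 846.8 and 831.4 in Wt arrays. Both Eed cKO arrays lay far above both Wt arrays, and each group's own arrays were close together. Fzd6 averaged 1525 ± 35.0 in Eed cKO and 839.1 ± 10.9 in Wt chondrocytes (SD, n = 2 each), a log2 difference of 0.84 (SE 0.07, 95% confidence interval 0.66 to 1.01, limma adjusted p = 0.000894), or 1.79-fold. This difference was above that of 98.5% of the genes tested.

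Fzd3, a receptor that also guides growing axons in the mouse brain, was at 1055 and 992.5 in Eed cKO arrays, against 603.7 and 625.04 in Wt arrays. The groups did not overlap, and again the arrays within a group differed by little. Fzd3 averaged 1023 ± 43.9 in Eed cKO and 614.4 ± 15.1 in Wt chondrocytes, which gives a log2 difference of 0.71 (SE 0.08, interval 0.52 to 0.90, limma adjusted p = 0.00223), or 1.63-fold. Both Wt values lay just under the intensity filter of 625.6, so the gene entered the test through its level in Eed cKO cells. With every named gene tested, without a filter, its limma adjusted p was 0.00223 as well, within a range from 0.00168 to 0.171 over all alternatives.

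In the trio Fzd4, Fzd9 and Fzd10, Fzd4 and Fzd9 rose and Fzd10 did not pass. Fzd4, the receptor of the secreted protein Norrin, known for its need in retinal blood vessel growth, had 2046 and 1973 in Eed cKO arrays, against 1462 and 1361 in Wt arrays. All Eed cKO values were above all Wt values. The means were 2010 ± 51.8 in Eed cKO and 1411 ± 71.6 in Wt chondrocytes, a log2 difference of 0.50 (SE 0.07, interval 0.32 to 0.68, limma adjusted p = 0.00609), or 1.42-fold.

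Fzd9, which osteoblasts of the mouse need for normal bone formation, had 7063 and 7705 in Eed cKO arrays, against 5799 and 6093 in Wt arrays. The groups did not overlap, but the gap between Eed cKO 1 and Wt 2 was the smallest among the 4 genes that rose, 0.21 on the log2 scale. Fzd9 averaged 7384 ± 454 in Eed cKO and 5946 ± 208 in Wt chondrocytes, with a log2 difference of 0.31 (SE 0.06, interval 0.17 to 0.45, limma adjusted p = 0.0149), or 1.24-fold. Without Wt 1 the difference was 0.27 and the call was lost (adjusted p = 0.0523), and over all alternatives its adjusted p ran from 0.00651 to 0.253. Fzd10 had 2501 and 2454 in Eed cKO arrays, against 2304 and 2472 in Wt arrays. Eed cKO 2 lay below Wt 2, so the groups overlapped, and the log2 difference was 0.05 (interval -0.11 to 0.21, adjusted p = 0.653).

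None of Fzd1, Fzd2 and Fzd7, widely expressed receptors of the canonical and polarity branches, passed the test. Fzd1 had 4127 and 4417 in Eed cKO arrays, against 3675 and 3772 in Wt arrays. Its arrays did not overlap, and its difference of 0.20 had an interval above 0, from 0.05 to 0.34, but the limma adjusted p was 0.0738. Fzd2 had 4656 and 5268 in Eed cKO arrays, against 4506 and 4470 in Wt arrays, with a difference of 0.14 (interval -0.02 to 0.31, adjusted p = 0.224). Most of the spread of Fzd2 lay between the Eed cKO arrays, which differed by 0.18, and without Eed cKO 1 the calls of Fzd1 and Fzd2 were gained, with differences of 0.24 and 0.23 (adjusted p = 0.0378 and 0.0367). Over all alternatives the adjusted p ran from 0.0378 to 0.335 for Fzd1 and from 0.0367 to 0.578 for Fzd2.

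Fzd7 had 8446 and 8367 in Eed cKO arrays, against 8567 and 8509 in Wt arrays. It was the only member with both Eed cKO arrays below both Wt arrays, by very little, and its log2 difference of -0.02 had the narrowest interval of the family, from -0.12 to 0.07 (adjusted p = 0.757). Of the pair Fzd5 and Fzd8, Fzd5, which the mouse needs for yolk sac vessels, had 1541 and 1582 in Eed cKO arrays, against 1454 and 1390 in Wt arrays. The groups did not overlap, and its difference was 0.13 (interval -0.04 to 0.30, adjusted p = 0.269). Fzd8 had 4759 and 5070 in Eed cKO arrays, against 4699 and 4939 in Wt arrays. These overlapped, with a difference of 0.03 (interval -0.11 to 0.17, adjusted p = 0.788). In all, both Eed cKO arrays lay above both Wt arrays for 7 members and below them for 1, beside 31.1% and 29.1% of all genes tested.

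**Figure D2:**
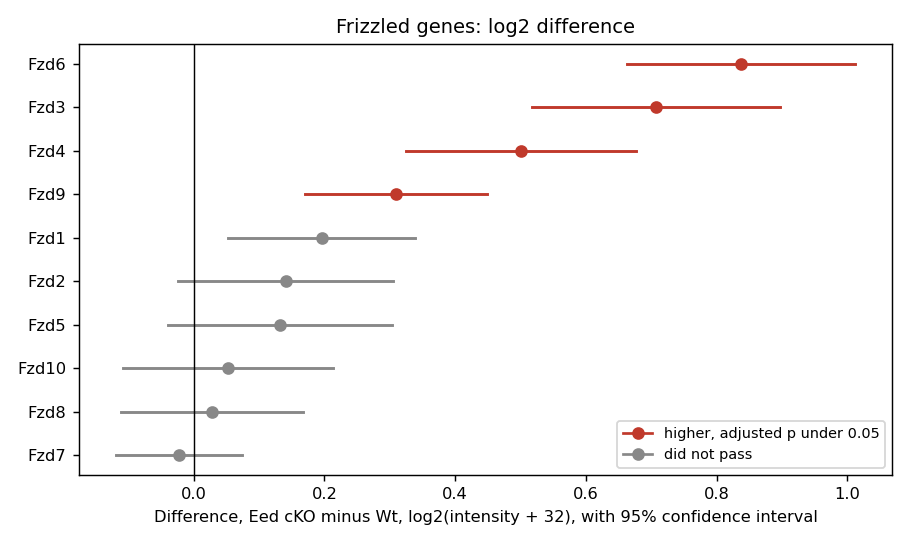
Difference between Eed cKO and Wt chondrocytes on the log2(intensity + 32) scale for each Frizzled gene (points), with the 95% confidence interval of the limma fit (bars), largest at the top. The 4 genes past an adjusted p of 0.05 are in red, and the intervals of Fzd6 and Fzd3 lie above those of all 6 genes that did not pass (grey).

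The intervals order the members only in part. Those of Fzd6 and Fzd3 overlapped widely. Those of Fzd3 and Fzd4 shared a smaller stretch, as did those of Fzd4 and Fzd9. The upper bound of Fzd9, 0.45, was under the lower bounds of Fzd3, 0.52, and Fzd6, 0.66. The differences between members themselves were not tested. Arrays of 1 group differed by at most 0.18 (Eed cKO) and 0.10 (Wt) on the log2 scale for any member, and each of the 4 genes that rose was higher in either Eed cKO array than in either Wt array.

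Because Xist crossed the groups, each array can also be set against the one with a like Xist level. Within the Xist-high arrays (Eed cKO 2 minus Wt 1) the log2 differences were 0.80 for Fzd6, 0.69 for Fzd3, 0.42 for Fzd4 and 0.41 for Fzd9. Within the Xist-low arrays (Eed cKO 1 minus Wt 2) they were 0.87 for Fzd6, 0.73 for Fzd3, 0.58 for Fzd4 and 0.21 for Fzd9. The 4 calls held in a fit with Xist-high arrays as a second term, a setting chosen after the data were seen, with adjusted p = 0.00416 for Fzd6, 0.00653 for Fzd3, 0.0172 for Fzd4 and 0.0289 for Fzd9.

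Promoter sequences of 6 members (Fzd1, Fzd4, Fzd5, Fzd7, Fzd9 and Fzd10) were matched in RefSeq for the mouse assembly GRCm38.p6, and the 250 bases before the annotated start of the gene were read on the strand of the gene. Promoters that are rich in the dinucleotide CpG are the usual sites of PRC2 in mammals, so the CpG count is given. The count does not show whether a promoter carried H3K27me3, which the arrays did not measure. The paper reports that Fzd6, whose promoter was not matched here, lacked this mark in chondrocytes, as did Lrp5. By qRT-PCR the paper found both genes raised in Eed cKO chondrocytes. It proposes that their rise was indirect, which was not tested here. The CpG counts were 42 in Fzd9, 25 in Fzd4, 12 in Fzd1, 17 in Fzd7, 32 in Fzd5 and 37 in Fzd10, beside a median of 6 over 32851 promoters in the table. Fzd9 and Fzd4, which rose, had more CpG than Fzd1 and Fzd7, while Fzd5 and Fzd10, which did not pass, had more than Fzd4 and fewer than Fzd9. The Fzd9 count was above that of 99.1% of the promoters and the Fzd1 count above that of 66.5%. None of the 6 windows held CTTTGAT or CTTTGAA, letters to which Lef/Tcf factors bind, on either strand. As only 7.5% of all promoters did, 6 windows are too few to show a lack of these letters. Fzd6 and Fzd3, with the largest differences, had no window to read. Those of Fzd9 and Fzd4, which rose, and of Fzd7, whose difference was the nearest to 0 of the 6, are printed 5′ to 3′ with each CpG in capitals. They lie at chr5:135251048-135251297 (minus strand, Fzd9), chr7:89404116-89404365 (plus strand, Fzd4) and chr1:59481897-59482146 (plus strand, Fzd7).
Fzd9: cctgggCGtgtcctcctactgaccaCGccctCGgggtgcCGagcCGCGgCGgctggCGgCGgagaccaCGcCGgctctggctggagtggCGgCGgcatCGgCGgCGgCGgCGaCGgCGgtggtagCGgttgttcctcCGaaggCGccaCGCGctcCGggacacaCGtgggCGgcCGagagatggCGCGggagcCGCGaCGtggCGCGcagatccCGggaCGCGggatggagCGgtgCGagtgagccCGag
Fzd4: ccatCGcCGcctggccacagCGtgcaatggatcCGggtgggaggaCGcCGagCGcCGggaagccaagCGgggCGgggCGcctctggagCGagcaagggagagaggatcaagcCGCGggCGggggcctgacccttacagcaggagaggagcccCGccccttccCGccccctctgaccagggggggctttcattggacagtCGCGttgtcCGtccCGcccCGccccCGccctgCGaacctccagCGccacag
Fzd7: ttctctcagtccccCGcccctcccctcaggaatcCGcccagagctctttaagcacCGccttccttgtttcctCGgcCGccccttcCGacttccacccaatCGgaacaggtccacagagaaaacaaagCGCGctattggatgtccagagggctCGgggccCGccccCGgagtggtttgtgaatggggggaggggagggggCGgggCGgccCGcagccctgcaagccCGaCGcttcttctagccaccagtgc

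The members share little in genome position. Fzd1, Fzd9 and Fzd10 are on chromosome 5 and Fzd5 and Fzd7 on chromosome 1, while Fzd2, Fzd3, Fzd4, Fzd6 and Fzd8 each have a chromosome of their own (11, 14, 7, 15 and 18). The 2 nearest protein-coding genes on each side were looked up for every member. Over all genes tested 9.63% rose and 5.98% fell. Of the 13 tested neighbours of the 4 genes that rose, 1 rose, 1 fell and 11 did not pass. The one that rose was Prss23, a serine protease gene next to Fzd4, with 6066 and 6039 in Eed cKO arrays, against 3709 and 3932 in Wt arrays, a log2 difference of 0.66 (adjusted p = 0.000715). The one that fell was Zfp395, near Fzd3 (-0.30, adjusted p = 0.0136). Cthrc1, the neighbour of Fzd6, encodes a secreted protein that in the mouse binds Wnt and Frizzled proteins, and it did not pass (0.18, adjusted p = 0.143). Near the members that did not pass, Cdk14, a kinase gene next to Fzd1 whose product phosphorylates the co-receptor Lrp6, had 2472 and 2612 in Eed cKO arrays, against 1410 and 1490 in Wt arrays, a rise of 0.80 (adjusted p = 0.000988). Mpp7, near Fzd8, rose by 0.57 (adjusted p = 0.0242), with 681.0 and 880.1 in Eed cKO arrays, against 521.7 and 501.2 in Wt arrays. Both its Wt values lay under the intensity filter of 625.6, so Mpp7 entered the test through its level in Eed cKO cells. Gm973, near Fzd7, fell by 0.48 (adjusted p = 0.0104). The neighbours were chosen after the values of the members were seen.

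Among receptors and proteins that act with Frizzleds, 5 of 11 tested rose, 0 fell and 6 did not pass, with a median log2 difference of 0.14. The shares over all genes tested were 9.63% higher and 5.98% lower. The Norrin complex joins Fzd4 with Lrp5 and the tetraspanin Tspan12. Tspan12 had 2382 and 2641 in Eed cKO arrays, against 1651 and 1856 in Wt arrays, and rose by 0.51 (adjusted p = 0.0105). The co-receptor Lrp5 had 4861 and 5345 in Eed cKO arrays, against 3663 and 3549 in Wt arrays, and rose by 0.50 (adjusted p = 0.00373). Norrin itself, encoded by Ndp, had overlapping groups, at 820.5 and 687.0 in Eed cKO arrays and 746.6 and 832.9 in Wt arrays (-0.07, adjusted p = 0.722). Thus Fzd4, Lrp5 and Tspan12 of this complex were higher, while its ligand did not pass.

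Adgra2, an adhesion receptor that with Reck presents Wnt7 ligands to Frizzleds, had 4791 and 5070 in Eed cKO arrays, against 2607 and 2498 in Wt arrays, a rise of 0.94 (adjusted p = 0.000283). Reck did not pass (0.14, adjusted p = 0.0707), and Wnt7a and Wnt7b lay under the filter. Ptk7, a pseudokinase of the polarity branch, had 4447 and 4658 in Eed cKO arrays, against 2981 and 2812 in Wt arrays, and rose by 0.65 (adjusted p = 0.00121). Lrp4, a receptor related to Lrp5 that binds sclerostin, rose by 0.96 (adjusted p = 0.00147). The co-receptor Lrp6 (-0.04, adjusted p = 0.576) and the Wnt5a receptor Ror2 (0.02, adjusted p = 0.839) did not pass. The 5 calls held without any single array, but 0 of the 11 genes passed the methods' t-test after adjustment, as was so for every list described here.

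A turnover list held 12 genes for how many Frizzled molecules stay at the cell surface, or for Wnt inhibition at the membrane. The RNA of 9 was tested, of which 3 rose, 0 fell and 6 did not pass (median difference 0.20). Over all genes tested the shares were 9.63% higher and 5.98% lower. Lgr6, a receptor of the R-spondins, which spare Frizzleds from removal, had 4051 and 5377 in Eed cKO arrays, against 1871 and 2188 in Wt arrays, a rise of 1.19 (adjusted p = 0.00236). Apcdd1, a membrane inhibitor of Wnt signalling, and Shisa2, of a family known from Xenopus to hold Frizzleds back in the endoplasmic reticulum, rose by 0.68 and 0.53 (adjusted p = 0.00245 and 0.00792). The ubiquitin ligases that mark Frizzleds for removal are Znrf3 and Rnf43. Znrf3 did not pass (0.20, adjusted p = 0.0917), with 3189 and 2967 in Eed cKO arrays, against 2715 and 2635 in Wt arrays, and Rnf43 lay under the filter.

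**Figure D3:**
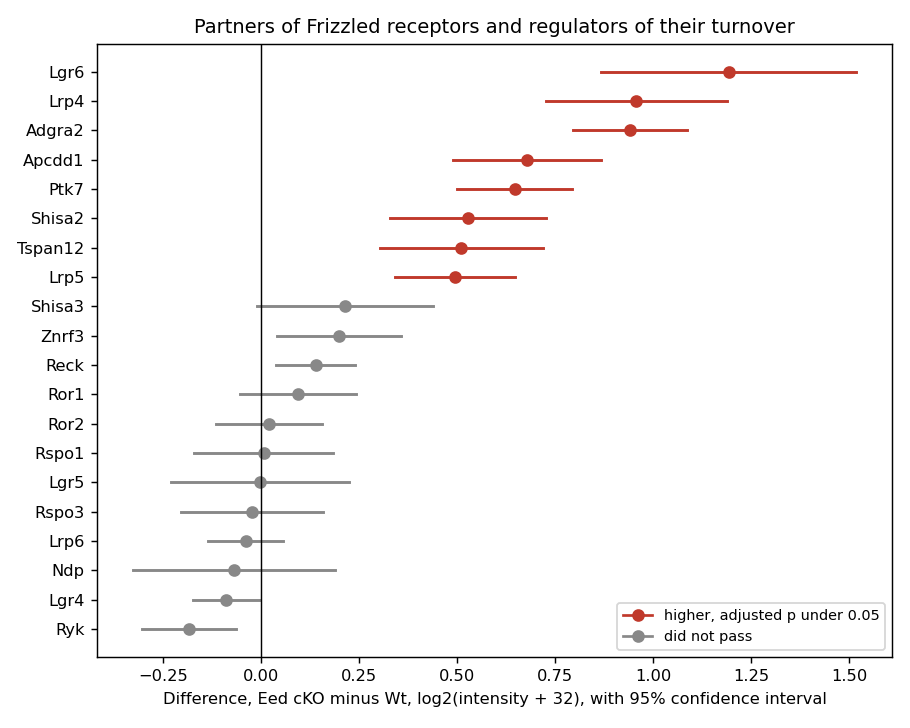
Difference between Eed cKO and Wt chondrocytes on the log2(intensity + 32) scale (points), with 95% confidence intervals (bars). Shown are 11 genes that act with Frizzled receptors and 9 listed for their turnover or for Wnt inhibition at the membrane. The 8 genes in red passed an adjusted p of 0.05, all of them higher in Eed cKO cells, with differences from 0.50 (Lrp5) to 1.19 (Lgr6), and grey genes did not pass.

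Other proteins carry the same kind of cysteine-rich domain as the Frizzleds. Of 10 tested, 2 rose, 0 fell and 8 did not pass (median difference 0.14), beside 9.63% higher and 5.98% lower of all genes tested. The secreted Wnt antagonist Sfrp4 had 1384 and 1426 in Eed cKO arrays, against 650.1 and 705.2 in Wt arrays (1.02, adjusted p = 0.000568), and the collagen Col18a1 rose by 0.46 (adjusted p = 0.00881), a call lost without Wt 1 (0.0530). Smo, the Hedgehog signal transducer of the Frizzled superfamily, did not pass (0.15, adjusted p = 0.0604).

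Of 19 Wnt ligands 10 were above the filter, of which Wnt5a and Wnt10a rose by 1.26 and 0.52 (adjusted p = 0.000861 and 0.00914), 0 fell and 8 did not pass (median difference 0.01). In the Dishevelled and planar polarity core 3 of 12 rose, 1 fell and 8 did not pass (median difference 0.02). Both lists are short, and over all genes tested 9.63% rose and 5.98% fell. Prickle2 rose by 0.54 (adjusted p = 0.00832), a call that held without any single array. Vangl2, which interacts with Fzd3 and Fzd6 in setting polarity, had 1919 and 2630 in Eed cKO arrays, against 1427 and 1539 in Wt arrays, a rise of 0.59 (adjusted p = 0.0334) that was lost without Wt 1 (0.0596), with quantile normalization (0.0571) or without the intensity trend (0.0669). The formin Daam2 rose by 0.45 (adjusted p = 0.0129, and 0.0530 without Wt 2), whereas Daam1 fell by 0.30 (adjusted p = 0.0355), a call lost without Wt 1 (0.25), Wt 2 (0.109) or Eed cKO 2 (0.0680).

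Downstream of the receptors, 4 of 18 genes of the beta-catenin destruction complex and its nuclear partners rose, 2 fell and 12 did not pass (median difference 0.06). Of all genes tested, 9.63% rose and 5.98% fell. Lef1 and Tcf7 rose by 1.82 and 0.81 (adjusted p = 0.000186 and 0.00141), and Tcf7l1 rose by 0.26 (adjusted p = 0.0113, and 0.0658 without Wt 2). The kinase Gsk3a fell by 0.19 (adjusted p = 0.0173), a call lost without Wt 1 (0.0592), Wt 2 (0.0993) or the trend (0.0791).

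The genes whose values over the 4 arrays were most like those of a member were found by the Euclidean distance between log2 values centred on each gene's mean, as a description. For Fzd6 these were Alpk1, Asb4 and Pcolce, an enhancer of procollagen processing, at distances of 0.03, 0.03 and 0.04. For Fzd3 they were Prrx1, a transcription factor of limb mesenchyme, Arhgap6 and Gdpd5 (0.04 each). For Fzd4 they were Cyba, Nipsnap1 and the vessel growth factor Angpt2 (0.02 each), and for Fzd9 they were Hrct1, Pbx3 and Nrgn (0.02, 0.03 and 0.03).

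Markers of chondrocytes and of other cells of the rib were read from the same arrays. Sums include every listed marker on the array, also those under the intensity filter, while the counts cover tested markers only. Beside these counts, 9.63% of all genes tested rose and 5.98% fell. The summed levels of the osteoblast and fibroblast lists were higher in both Eed cKO arrays than in both Wt arrays, and those of the muscle and red cell lists overlapped. Of 10 chondrocyte markers 1 rose, 2 fell and 7 did not pass, with summed intensities of 238690 to 241731 in Eed cKO arrays, against 244340 to 248584 in Wt arrays. Of 12 fibroblast and perichondrium markers 7 rose, 1 fell and 4 did not pass (sums 96087 to 102774 in Eed cKO, against 84741 to 89436 in Wt arrays). Of 6 osteoblast markers tested 4 rose, 0 fell and 2 did not pass (sums 46272 to 56370 in Eed cKO, against 26252 to 33279 in Wt arrays). Much of this sum was Spp1, with 19384 and 22664 in Eed cKO arrays, against 12237 and 17058 in Wt arrays. The paper takes Spp1 as its marker of late hypertrophic chondrocytes, so this list does not separate osteoblasts from such chondrocytes. Of 7 endothelial markers tested 2 rose, 1 fell and 4 did not pass (sums 16265 to 16924 in Eed cKO, against 12344 to 12649 in Wt arrays). Much of the endothelial sum was Eng, and without it the sums were 7775 and 8186 in Eed cKO arrays, against 7602 and 7589 in Wt arrays. Of 7 muscle markers 3 rose and 1 fell (sums 10831 to 12421 in Eed cKO, against 11013 to 11145 in Wt arrays), of 6 macrophage markers 0 rose and 2 fell (10446 to 11149 in Eed cKO, against 11722 to 12051 in Wt arrays), and of 4 red cell markers 0 rose and 1 fell (15630 to 17824 in Eed cKO, against 16759 to 17947 in Wt arrays). No marker was listed at 0 in any array. The part of these cells in the differences of the Frizzled genes was not tested.

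**Figure D4:**
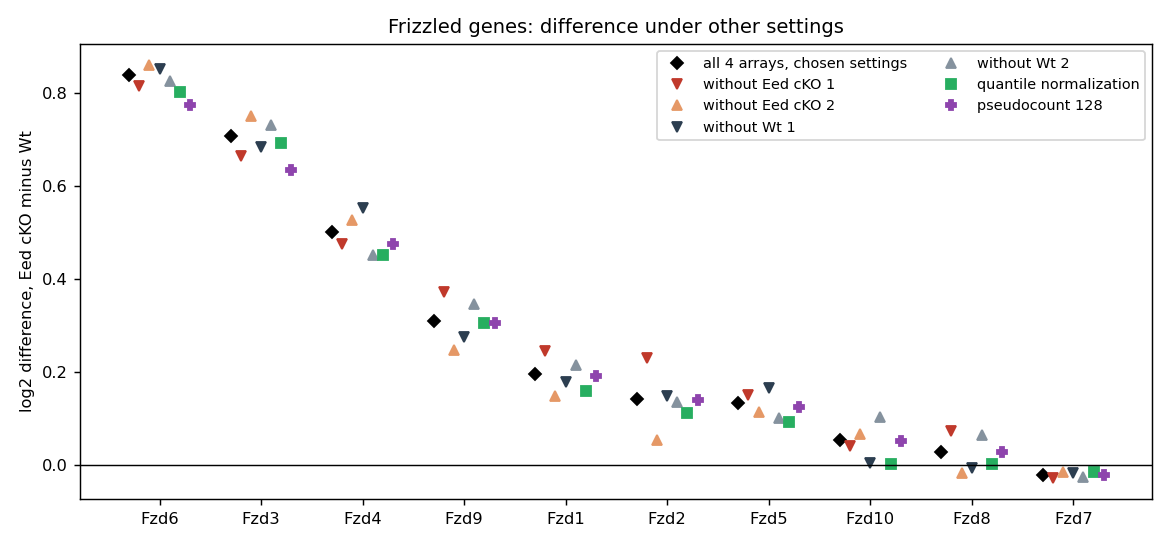
Difference between Eed cKO and Wt chondrocytes (log2) for each Frizzled gene with all 4 arrays (black diamonds), without each array in turn (triangles), with quantile normalization (squares) and with a larger pseudocount (crosses). Fzd6, Fzd3, Fzd4 and Fzd9 stay above 0.2 in each of these settings, and Fzd8 lies on both sides of 0.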

How the data were processed

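Total RNA of primary rib chondrocytes was hybridised by the authors to 4 Affymetrix Mouse Gene ST 1.0 arrays. The deposited intensity values are probe set summaries on a linear scale, 1 column per array for 35512 probe sets. A supplementary sheet name of the study mentions dChip signals. Background correction, normalization and genome build were not given in the sources used here. Both deposited tables held equal intensities, and 3 columns of the authors' ratios were not used.

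Names came from the deposited gene column, updated through RefSeq genes of GRCm38.p6: 18664 probe sets were matched by accession, 2420 by symbol, 1957 by an older name, 2134 kept the file's name and 10337 had none. The brightest probe set stood for a gene. Genes with a mean intensity under the 33rd percentile (625.6) were left out, which kept 14944 of 22305 genes and all 10 Frizzled genes. Log2(intensity + 32) was fitted with limma 3.58.1 in R 4.3.3 (lmFit, eBayes with an intensity trend, two-sided, group as the single term), with Benjamini-Hochberg adjustment over all genes that passed the filter. The fit had 2 residual degrees of freedom, raised to 6.911 by the shared variance. The pseudocount makes differences of dim genes smaller than they are, and precision is limited by the number of arrays. Whether a probe set also binds RNA of related Frizzled genes was not tested.

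The members and lists were chosen with earlier results of these data known. Named genes are the 10 members, Eed, the genes past the threshold in each list (all where 5 or fewer passed, otherwise the 4 of smallest p) and the 3 genes most like each member that rose. Other genes named (Col2a1, Xist, Ddx3y, neighbours on the chromosome and genes that did not pass or lay under the filter) were chosen after their values were seen. Not every neighbour of the members that did not pass is reported here. Alternatives were no filter, pseudocounts of 1 and 128, quantile normalization, no trend, the mean of all probe sets, a replicate block, the methods' unpaired test, each array left out and, added after the data were seen, a term for Xist-high arrays.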

Additional observations from a re-analysis of the deposited data

How the results depend on the processing

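Over 13 alternatives the log2 differences of the genes that rose ran from 0.77 to 0.86 for Fzd6, 0.63 to 0.75 for Fzd3, 0.45 to 0.55 for Fzd4 and 0.25 to 0.37 for Fzd9. The methods' t-test, run on the same values, ended all 4 calls after Benjamini-Hochberg (adjusted p = 0.146 for Fzd6, 0.171 for Fzd3, 0.183 for Fzd4 and 0.253 for Fzd9). It left 0 Frizzled genes higher, with 4 at an unadjusted p under 0.05, and in every other list 0 higher and 0 lower. Over all genes it left 2 higher and 2 lower, against 1439 higher and 894 lower with limma. The t-test gave 2949 of all 14944 genes an unadjusted p under 0.05. That test takes each gene's spread from 2 degrees of freedom. Fzd3, Fzd4 and Fzd6 kept their calls in each of the other alternatives, and Fzd9 lost its call without Wt 1. No Frizzled gene was lower in any alternative.

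Without the intensity trend 574 genes were lower. With 1 array left out, 928 to 1562 genes were higher, 385 to 1170 were lower, and 3 to 6 Frizzled genes were higher. Without Wt 1 the counts were 928 higher and 509 lower, and without Wt 2 385 were lower. The group that is then down to 1 array is assumed to vary like the other group. The difference of Fzd8 changed sign without Eed cKO 2 (-0.017) and without Wt 1 (-0.0077), and ran from -0.017 to 0.073 with 1 array left out. With 1 array left out, genes higher numbered 5 to 6 for the partners, 3 to 4 for turnover and for the destruction complex, and 2 to 4 for the polarity core. Of the other cysteine-rich domain proteins 4 were higher without Eed cKO 1 and 1 without Wt 1. The destruction complex had 1 gene lower without Eed cKO 2 and 0 without Wt 1 or Wt 2. Of the markers, 1 endothelial gene was higher without Eed cKO 2, Wt 1 or Wt 2, 1 muscle gene was higher without Wt 1, and 0 macrophage genes were lower without Wt 1 or Wt 2. The 1 endothelial and the 1 red cell gene that were lower lost their calls (0 lower) without Eed cKO 1, Wt 1 or Wt 2, with no filter, with the replicate block and with the Xist term, and without Eed cKO 2 1 red cell gene was higher. Of the chondrocyte markers 1 was lower without Eed cKO 2 or Wt 1 and 0 without Wt 2. The causes were not tested.

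With the replicate block 4 Frizzled genes were higher and 0 lower, and over all genes 1539 were higher and 972 lower. Samples with the same number did not deviate together (correlation over genes -0.06). That correlation cannot settle whether equal numbers mark littermates, since Xist ran in opposite directions in the groups. The paper states that its control and cKO comparisons were between littermates. The block changed no call of a Frizzled gene.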
